A study of Mus musculus with 13 samples.

Results

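The 9 genes of hyaluronan metabolism described here were followed across 13 RNA-seq libraries of mouse lung fibroblasts: the synthases Has1, Has2 and Has3, the hyaluronidases Hyal1 and Hyal2, the hyaluronan-binding Tnfaip6, Vcan and Cd44, and Ptx3, which binds the Tnfaip6 product in the hyaluronan matrix. They were taken by symbol from the 43346 genes in the deposited table, in which each of the 9 had a single entry. The libraries formed 4 groups: 30 days after bleomycin (n = 5), 14 days after bleomycin (n = 3), 14 days after pneumonectomy (n = 3) and sham (n = 2). Bleomycin is a drug that injures the lung and leaves scar tissue, and pneumonectomy takes out lung tissue by surgery and is followed by growth of what remains. The sham and bleomycin mice were 8 weeks old and carried Col1a1-GFP, green fluorescent protein under a collagen promoter, and the table calls all 4 groups young. For pneumonectomy the labels give primary sorted fibroblasts and no strain or age of their own, so any difference in preparation cannot be told apart from the operation. The labels state neither the gate of the sort nor the sex of the mice, and whether a library is 1 mouse or a pool is not given in the sources used here.

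Hyaluronan is a long, unsulphated sugar chain that synthases at the plasma membrane extend from UDP-glucuronate and UDP-N-acetylglucosamine. In inflamed tissue TSG-6, the product of Tnfaip6, moves the heavy chains of inter-alpha-inhibitor from their carrier onto hyaluronan, and the pentraxin PTX3 binds these chains and helps to hold the matrix together, as is known from the cumulus around the mouse egg. Versican, the large chondroitin sulphate proteoglycan encoded by Vcan, binds hyaluronan at its end, CD44 is the main cell surface receptor, and the hyaluronidases HYAL2, anchored at the cell surface, and HYAL1, in lysosomes, cut the chain. In the lung, hyaluronan accumulates after bleomycin injury.

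The data in short were these. Has1, Tnfaip6 and Ptx3 were high after pneumonectomy and low 14 days after bleomycin, and between these groups their fitted levels were 36.2-fold, 35.7-fold and 44.2-fold lower in bleomycin. Hyal2 was 3.52-fold higher in bleomycin in the same comparison. Cd44 was above sham in all 3 treated groups. Has2 and Vcan were not called against sham in any group. At day 30 after bleomycin the levels of Has1, Tnfaip6 and Ptx3 were again above those of day 14, and their differences from sham were not called.

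The promoters of the 3 genes that moved together are shown as the 250 bases before the RefSeq start of each gene (build GRCm38.p6), 5′ to 3′ on the strand of the gene. Capitals mark matches of the motifs searched.
Has1, chr17:17855189-17855438, minus strand: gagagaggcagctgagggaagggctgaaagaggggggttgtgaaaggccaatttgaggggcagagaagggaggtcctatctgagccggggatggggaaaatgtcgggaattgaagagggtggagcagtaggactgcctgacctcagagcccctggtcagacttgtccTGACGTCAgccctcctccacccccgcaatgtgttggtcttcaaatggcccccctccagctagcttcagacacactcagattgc
Tnfaip6, chr2:52037863-52038112, plus strand: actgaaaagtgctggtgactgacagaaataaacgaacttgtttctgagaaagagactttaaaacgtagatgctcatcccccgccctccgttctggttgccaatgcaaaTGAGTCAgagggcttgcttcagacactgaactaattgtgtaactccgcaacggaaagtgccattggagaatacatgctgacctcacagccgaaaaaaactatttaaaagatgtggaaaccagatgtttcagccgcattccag
Ptx3, chr3:66219637-66219886, plus strand: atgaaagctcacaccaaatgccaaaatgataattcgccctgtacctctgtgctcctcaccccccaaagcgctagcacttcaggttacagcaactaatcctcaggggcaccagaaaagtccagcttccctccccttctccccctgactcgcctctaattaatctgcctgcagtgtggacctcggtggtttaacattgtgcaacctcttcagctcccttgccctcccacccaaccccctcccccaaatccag

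Motifs were searched on both strands, in windows that also held the 50 bases after the start: the AP-1 motif TGANTCA, the cyclic AMP response element TGACGTCA, the TATA motif TATAAA and the kappaB consensus, which needs letters for several bases and is given by name. Has1 held the cyclic AMP response element, from 83 to 76 bases before the start, and 1.79% of all 32851 promoters of this length held it. Tnfaip6 held the AP-1 motif from 142 to 136 bases before the start, a motif present in 7.81% of promoters. Ptx3 held a pair of overlapping matches of the kappaB consensus at the start itself and just after it, outside the bases shown, and this consensus was present in 4.51% of promoters. Neither the AP-1 motif, the cyclic AMP response element nor the kappaB consensus was shared by any pair of the 3 promoters, and TATAAA, present in 13.6% of promoters, was found in none of them. A match of letters describes the sequence and does not show that a factor binds there. Of the other members, Hyal1, Hyal2, Vcan and Cd44 had an entry among the RefSeq promoters. Hyal2 held a match of the kappaB consensus, from 238 to 229 bases before the start, and no match was found in the windows of Hyal1, Vcan and Cd44.

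On the mouse mm10 (GRCm38) assembly, GENCODE release M21 places Has1 on chromosome 17 from 17843323 to 17855205, Has2 on chromosome 15 from 56665627 to 56694539 and Has3 on chromosome 8 from 106870242 to 106884566. Tnfaip6 lies on chromosome 2 from 52038009 to 52056686, Ptx3 on chromosome 3 from 66219910 to 66225805, Vcan on chromosome 13 from 89655312 to 89742509 and Cd44 on chromosome 2 from 102811141 to 102901665. Hyal2 and Hyal1 are neighbours on chromosome 9, from 107567945 to 107572779 and from 107576927 to 107581710. The exons of Hyal1 share 50.8% of their bases with Naa80, listed in the table under its older symbol Nat6, on the same strand, so that the reads of these genes may not be separated. Has2 shares 4.30% of its exon bases with the antisense gene Has2os, at 0.945 to 2.72 RPKM. Has3 shares 5.52% with Chtf8 on the opposite strand, at 5.92 to 10.9 RPKM, above the level of Has3 itself in every library. The kit named in the labels does not mark strand, so reads from these shared bases cannot be assigned to either gene.

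Levels are RPKM as the authors deposited them, a unit that corrects each gene's reads for its length and for library size, so that genes can be compared with each other on this scale. The reads behind the values, estimated from the smallest values and the gene lengths, numbered 133 to 200.3 M per day 30 library, 79.9 to 99.9 M per day 14 bleomycin library, 69.0 to 75.4 M per pneumonectomy library and 67.6 and 72.0 M in sham. The members rested on at least 237 estimated reads in every library. Fibroblast markers (10 genes) summed to 3590 to 3998, 2792 to 3466, 2999 to 4711 and 3328 and 4453 RPKM in the same order of groups. These sums hide opposite differences between day 14 after bleomycin and sham. Col1a1 (1196 to 1633 RPKM, against 437 and 670) and Col1a2 were above sham. Dcn (117 to 169 RPKM, against 1382 and 1856), Fbln1 (12.0 to 25.2, against 280 and 300), Lum, Pdgfra, Mfap5 and Tcf21 were below it. Col3a1 and Pdgfrb overlapped with sham. Endothelial markers (10 genes) summed to 298 to 578 RPKM at day 14 after bleomycin and to at most 44.5 in every other library, and macrophage markers (9 genes of 10 in the table) to 198 to 745 at day 30, 128 to 447 at day 14, 26.8 to 46.5 after pneumonectomy and 25.5 and 31.7 in sham. Epithelial markers (8 genes) stood at 1318 RPKM in day 30 replicate 3 and 502 in pneumonectomy library A, against 3.09 to 98.1 in the other libraries. Xist, transcribed from the silenced X in female cells, reached 19.9 to 29.2 RPKM at day 30, with the Y-linked Ddx3y listed at 0, whereas at day 14 after bleomycin and after pneumonectomy Xist was at most 0.0222 RPKM and Ddx3y at least 9.91. Sham replicate 1 had 15.9 RPKM of Xist and 2.14 of Ddx3y, and sham replicate 2 had 0.0147 and 11.4. Sex therefore goes with the comparison of day 30 with day 14 and cannot be told apart from time there. Comparisons with sham are not balanced for sex either, since Xist was high in sham replicate 1 and not in replicate 2. In bulk RNA, fewer cells of a type and less RNA per cell cannot be told apart.

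Has1, 1 of the 3 synthases, was the member with the highest mean level after pneumonectomy. It stood at 7.04, 5.01 and 4.91 RPKM at day 14 after bleomycin, at 164, 200.2 and 100.5 RPKM after pneumonectomy and at 72.7 and 26.8 RPKM in sham. At day 30 the 5 libraries held 65.7, 32.0, 32.4, 13.4 and 31.3 RPKM. All day 14 bleomycin libraries lay below all others, all pneumonectomy libraries lay above all others, and the day 30 and sham libraries overlapped. Log2 changes come from a linear model across all genes (limma) on log2 of the scaled RPKM plus 0.1, stand with the fit's standard error after the ± sign, and were called at an adjusted p under 0.05. On this scale the change of Has1 at day 14 after bleomycin against sham was -3.20 ± 0.57, or 9.20-fold lower (adjusted p = 4.79e-04; n = 3 and 2). After pneumonectomy it was higher than in sham by 1.98 ± 0.57 (adjusted p = 0.0171; n = 3 and 2). Leaving out sham replicate 2 ended the pneumonectomy call (1.25, adjusted p = 0.189), as did leaving out pneumonectomy library B (1.74, adjusted p = 0.0528). The change between day 14 after bleomycin and pneumonectomy was -5.18 ± 0.51 (adjusted p = 3.93e-06; n = 3 each).

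Has2 and Has3 encode the other synthases, and Has2 is the form needed for the developing heart in mice. Has2 stood at 7.66, 5.57 and 6.83 RPKM at day 14 after bleomycin, 9.91, 9.47 and 4.61 RPKM after pneumonectomy and 5.70 and 5.99 RPKM in sham. At day 30 it stood at 4.96, 3.46, 3.70, 4.21 and 5.34 RPKM. Pneumonectomy library C was below sham and the other pneumonectomy libraries above it. The log2 change of Has2 against sham was -0.06 at day 14 after bleomycin (95% interval -0.71 to 0.60), 0.59 after pneumonectomy (-0.07 to 1.24) and -0.56 at day 30 (-1.16 to 0.04), and none was called. Without pneumonectomy library C the pneumonectomy change of Has2 was 0.95 and was called (adjusted p = 0.00374). Between day 14 after bleomycin and pneumonectomy Has2 changed by -0.65 ± 0.27 (adjusted p = 0.0467), a call that was lost under most alternatives, among them the RPKM as deposited (-0.19, adjusted p = 0.514), and without pneumonectomy library A or B or bleomycin replicate 2 or 3 (-0.64 to -0.46). Has3 was below 1 RPKM in all 13 libraries and did not pass the filter on low values. It ranged from 0.790 to 0.981 RPKM at day 30, from 0.762 to 0.898 at day 14 after bleomycin, from 0.501 to 0.566 after pneumonectomy and from 0.696 to 0.735 in sham. With the filter lowered to 0.1 RPKM its difference between day 14 after bleomycin and pneumonectomy was 0.14 and not called (adjusted p = 0.232).

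**Figure D1:**
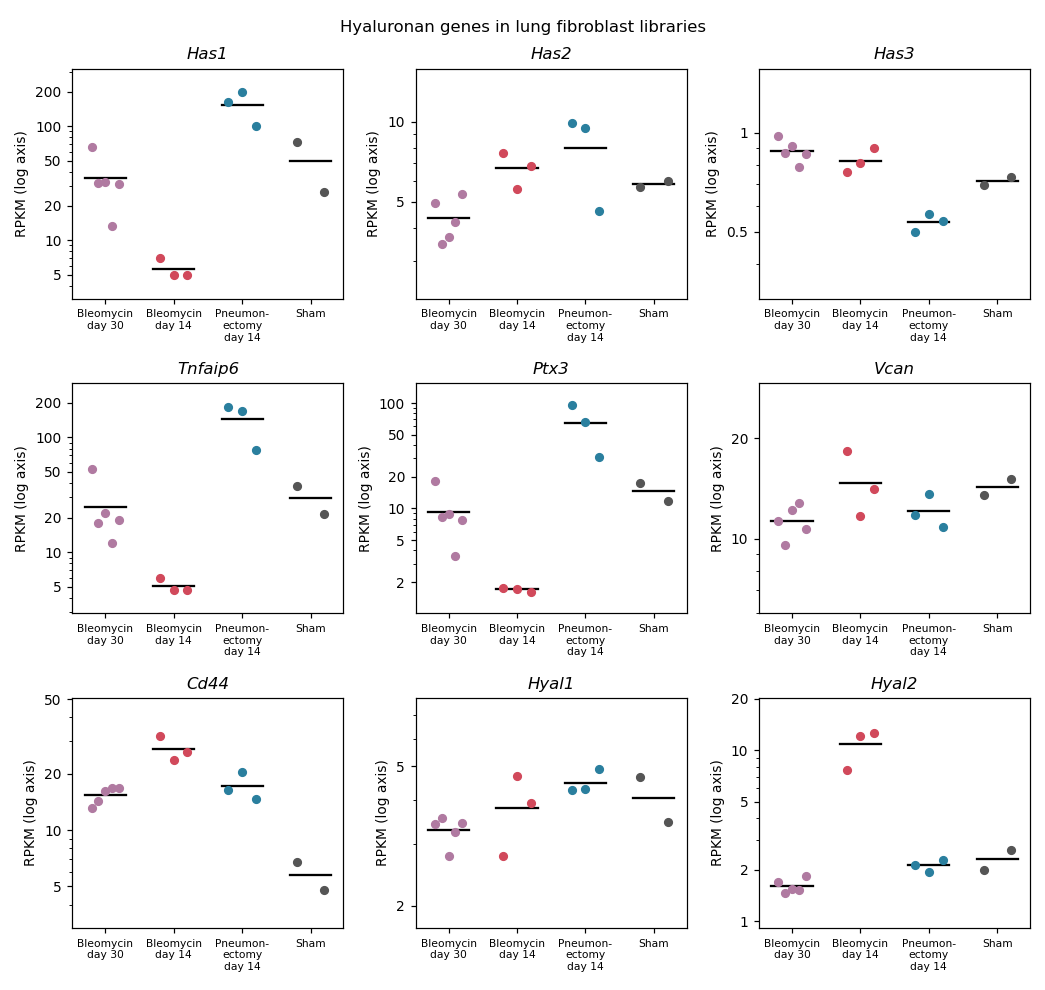
Deposited RPKM of the 9 hyaluronan genes on log axes, 1 panel a gene, with 1 point a library and a bar at the group mean, for bleomycin day 30 (n = 5), bleomycin day 14 (n = 3), pneumonectomy day 14 (n = 3) and sham (n = 2). The points of Has1, Tnfaip6 and Ptx3 are lowest at day 14 after bleomycin and highest after pneumonectomy, Hyal2 is highest at day 14 after bleomycin, and Cd44 is lowest in sham.

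The make-up of synthase RNA followed from these levels. Has1 made up 38.9% to 45.5% of the summed RPKM of the 3 synthases at day 14 after bleomycin, against 94.0% to 95.2% after pneumonectomy and 79.9% and 91.9% in sham. Has2 accounted for 48.9% to 54.0%, 4.37% to 5.67%, and 7.20% and 17.9% in the same groups. The summed synthase RPKM was 11.4 to 15.5 at day 14 after bleomycin, 106 to 210.3 after pneumonectomy and 33.5 and 79.1 in sham. At day 30 the sum was 18.4 to 71.6 RPKM and the Has1 share 72.8% to 91.7%. In each day 14 bleomycin library Has2 was above Has1, and in each of the 10 other libraries Has1 was above Has2, by 3.18-fold to 21.8-fold.

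**Figure D2:**
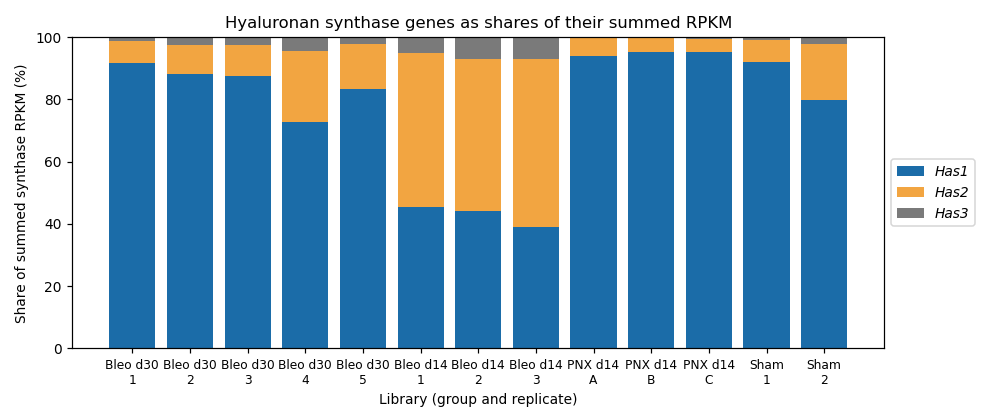
Share of each hyaluronan synthase gene in the summed RPKM of the 3 synthases (percent, bars from 0 to 100), 1 bar a library, with bleomycin day 30 and day 14 on the left, then pneumonectomy and sham. Has1 holds 38.9% to 45.5% in the 3 day 14 bleomycin libraries and at least 72.8% in the other 10.

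Tnfaip6 encodes TSG-6, the enzyme that transfers heavy chains to hyaluronan. Its level was 5.96, 4.73 and 4.70 RPKM at day 14 after bleomycin, 185, 168 and 77.9 RPKM after pneumonectomy and 38.0 and 21.7 RPKM in sham. At day 30 it was 53.0, 18.0, 21.9, 12.0 and 19.0 RPKM, with replicate 1 far above the others. The day 14 bleomycin libraries lay below and the pneumonectomy libraries above all others. The log2 change of Tnfaip6 at day 14 after bleomycin against sham was -2.71 ± 0.54 (adjusted p = 0.00100; n = 3 and 2). After pneumonectomy it was higher by 2.45 ± 0.54 (adjusted p = 0.00415; n = 3 and 2), a call that was lost by a small margin without sham replicate 2 (2.04, adjusted p = 0.0502).

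Ptx3 encodes a long pentraxin, a secreted pattern recognition molecule. It stood at 1.77, 1.74 and 1.62 RPKM at day 14 after bleomycin, 96.5, 66.4 and 30.8 RPKM after pneumonectomy and 17.6 and 11.7 RPKM in sham. The 5 day 30 libraries held 18.2, 8.29, 8.80, 3.51 and 7.85 RPKM. The order of the groups was that of Has1 and Tnfaip6, with day 30 and sham overlapping. Its change against sham was -3.23 ± 0.57 at day 14 after bleomycin (adjusted p = 4.41e-04) and 2.24 ± 0.57 after pneumonectomy (adjusted p = 0.00915). The pneumonectomy change was not called without sham replicate 2 (1.94, adjusted p = 0.0786).

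In the direct comparison of day 14 after bleomycin with pneumonectomy, the changes of Ptx3 and Tnfaip6 were -5.47 ± 0.51 and -5.16 ± 0.48 (adjusted p = 2.56e-06 and 2.55e-06; n = 3 each). Among the 12938 genes tested, Ptx3 had the lowest log2 change of this comparison, Has1 the 3rd lowest and Tnfaip6 the 4th lowest. These 3 changes stayed called when each of the 6 libraries was left out in turn, with ranges of -5.96 to -5.11 for Ptx3, -5.49 to -4.96 for Has1 and -5.58 to -4.93 for Tnfaip6. The comparisons share libraries, since both day 14 groups were set against the same sham pair.

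The 3 genes also varied together within the groups. In the day 30 group, replicate 1 held the highest and replicate 4 the lowest level of each of the 3. In the pneumonectomy group library C was the lowest in all 3, and in sham replicate 1 was above replicate 2 in all 3. Across the 13 libraries Has1 spanned 40.7-fold, Tnfaip6 39.4-fold and Ptx3 59.5-fold in RPKM, while the ratio of Tnfaip6 to Has1 within a library stayed between 0.523 and 1.13 and that of Ptx3 to Has1 between 0.241 and 0.587. By the root mean square difference between log2 profiles centred over the 13 libraries, the genes most like Has1 were Tnfaip6 (0.31), Ptx3 (0.35) and the neutrophil chemokine Cxcl1 (0.42), where the median over all genes compared was 1.89. The genes most like Tnfaip6 were Ptx3 (0.25), Cxcl1 (0.28) and Has1 (0.31), and those most like Ptx3 were Tnfaip6 (0.25), Has1 (0.35) and Cxcl1 (0.44).

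Immediate-early genes are transcription factors and regulators that respond within minutes to stimuli including tissue dissociation. A list of 8 of them (Fos, Fosb, Jun, Junb, Egr1, Ier2, Atf3 and Nr4a1), chosen after the values of the members were seen, summed to 760 to 827 RPKM at day 14 after bleomycin, 2127 to 2445 after pneumonectomy and 2752 and 1233 in sham replicates 1 and 2. At day 30 replicate 1 had the highest sum, 2297 RPKM, and replicate 4 the lowest, 1296, as for Has1, Tnfaip6 and Ptx3, and in sham replicate 1 was above replicate 2, also as for these genes. The order differed in the other groups. Day 14 bleomycin replicate 1 had the lowest sum of its group, 760 RPKM, and its highest level of each of the 3 genes, and after pneumonectomy library B had the lowest sum, 2127 RPKM against 2162 in library C, which was lowest in the 3 genes. Sham replicate 1 had the highest sum of all libraries but less Has1, Tnfaip6 and Ptx3 than any pneumonectomy library. The part of this list in the result was not tested.

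**Figure D3:**
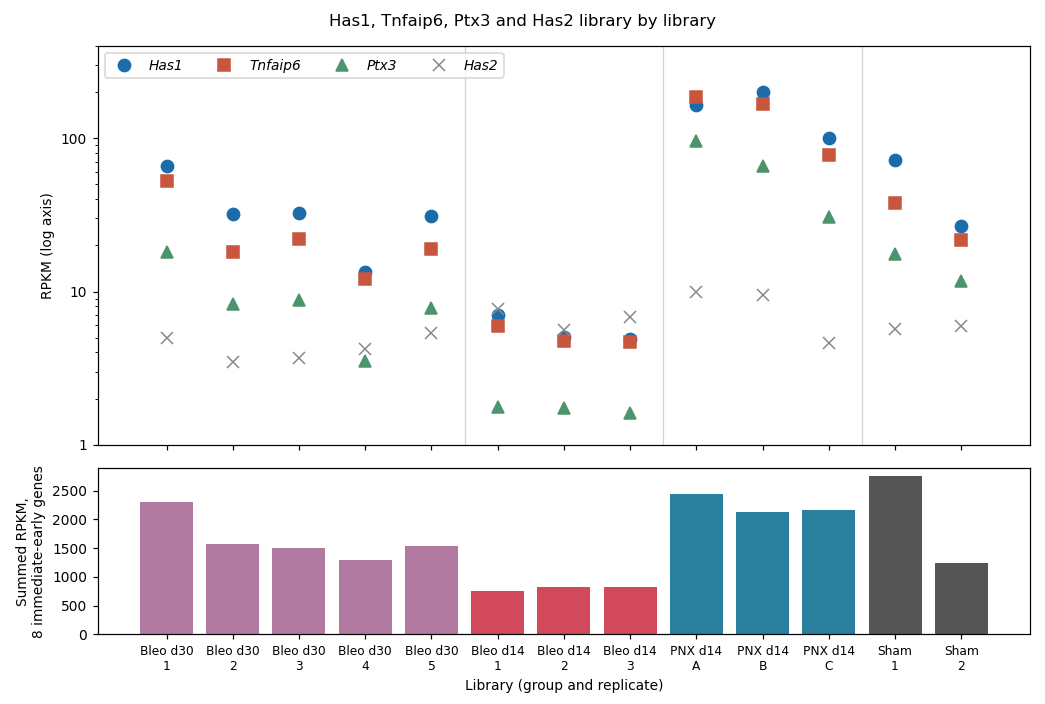
Top, RPKM (log axis) of Has1, Tnfaip6, Ptx3 and Has2 in each of the 13 libraries, grouped as bleomycin day 30, bleomycin day 14, pneumonectomy (PNX) and sham; bottom, summed RPKM of 8 immediate-early genes in the same libraries, with bars from 0. Has1, Tnfaip6 and Ptx3 share their highest and lowest library at day 30 (replicates 1 and 4), whereas Has2 stays between 3.46 and 9.91 RPKM throughout.

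Cells other than fibroblasts can also make these transcripts, and their markers were read beside them. Mesothelial markers (8 genes), which mark the lining of the lung surface where Has1 is known to be expressed, summed to 3.13 to 5.45 RPKM at day 14 after bleomycin, 13.3 to 45.8 after pneumonectomy and 3.73 and 2.68 in sham replicates 1 and 2, and to 4.94 to 22.1 at day 30. Between the day 14 groups the mesothelial sum was higher after pneumonectomy, as was Has1, and in sham both were higher in replicate 1. Within other groups the order differed. Pneumonectomy library C had the highest mesothelial sum, 45.8 RPKM, and the lowest Has1 of its group, and at day 30 replicate 1 had the lowest mesothelial sum, 4.94 RPKM, and the highest Has1. Granulocyte markers (9 genes), from cells that store PTX3 and TSG-6, summed to 27.2 to 37.4 RPKM at day 14 after bleomycin, 0.849 to 10.3 after pneumonectomy and 12.5 and 0.903 in sham replicates 1 and 2, and to 21.0 to 60.1 at day 30. Between the day 14 groups the granulocyte sum was higher after bleomycin, whereas Ptx3 and Tnfaip6 were higher after pneumonectomy. Day 30 replicate 1, with 60.1 RPKM, and sham replicate 1 had the highest granulocyte sum of their groups and also the highest Ptx3 and Tnfaip6. Elsewhere the order differed. Day 30 replicate 4, with a sum of 54.0 RPKM, had the lowest Ptx3 and Tnfaip6 of its group. Pneumonectomy library A had the lowest granulocyte sum of its group, 0.849 RPKM, and the highest Ptx3 and Tnfaip6. At day 14 after bleomycin replicate 2 had the highest sum, 37.4 RPKM, and replicate 1 the highest Ptx3 and Tnfaip6. Smooth muscle and pericyte markers (8 genes) summed to 94.8 to 128 RPKM at day 14 after bleomycin and 272 to 408 after pneumonectomy. Their sum was 278 and 136 RPKM in sham replicates 1 and 2, and 110 to 150 at day 30. Between the day 14 groups and in sham this order was that of Has1, Tnfaip6 and Ptx3. Within the other groups it differed, with library C highest after pneumonectomy and replicate 2 at day 30. The part of mesothelial, granulocyte, smooth muscle and pericyte RNA in these results was not tested.

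Vcan encodes versican, whose splice forms the table does not separate. It stood at 18.3, 11.7 and 14.1 RPKM at day 14 after bleomycin, 11.8, 13.6 and 10.8 after pneumonectomy and 13.5 and 15.1 in sham. At day 30 it stood at 11.3, 9.57, 12.2, 12.8 and 10.7 RPKM, all below both sham libraries. The other groups overlapped with sham. Its log2 change against sham was -0.23 at day 14 after bleomycin (95% interval -0.64 to 0.18), -0.02 after pneumonectomy (-0.43 to 0.39) and -0.46 at day 30 (-0.84 to -0.08, adjusted p = 0.065), and none was called. Without day 14 bleomycin replicate 1, Vcan was called lower at day 14 after bleomycin than in sham (-0.42, adjusted p = 0.0353) and than after pneumonectomy (-0.40, adjusted p = 0.0268). Without day 14 bleomycin replicate 2 it was called lower at day 30 than at day 14 (-0.39, adjusted p = 0.0447).

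Cd44, the hyaluronan receptor, was above sham in every treated library, with 31.8, 23.8 and 26.0 RPKM at day 14 after bleomycin, 16.3, 20.5 and 14.7 after pneumonectomy and 6.73 and 4.80 in sham. The day 30 libraries held 13.2, 14.4, 16.1, 16.7 and 16.9 RPKM. Cd44 rose by 1.99 ± 0.19 in log2 at day 14 after bleomycin (adjusted p = 4.05e-06), 1.79 ± 0.19 after pneumonectomy (adjusted p = 4.46e-05) and 1.30 ± 0.18 at day 30 (adjusted p = 5.04e-04), each against sham. Each of these calls remained in every fit that left out a library. Its change at day 30 against day 14 after bleomycin was -0.68 ± 0.15 (adjusted p = 0.00237). Day 14 after bleomycin and pneumonectomy differed by 0.20 (95% interval -0.17 to 0.58), which was not called, but on the RPKM as deposited the difference was 0.67 and was called (adjusted p = 0.00236). Macrophages carry much CD44, and their markers summed to 198 to 745 RPKM at day 30 and 128 to 447 at day 14 after bleomycin, 26.8 to 46.5 after pneumonectomy and 25.5 and 31.7 in sham. Replicate 1 of day 14 after bleomycin had the lowest macrophage sum of its group, 128 RPKM, and the highest Cd44, 31.8 RPKM. Pneumonectomy library B likewise had the lowest sum of its group, 26.8 RPKM, and the highest Cd44, 20.5 RPKM. The order differed in the other groups. Day 30 replicate 1 had the lowest macrophage sum, 198 RPKM, and the lowest Cd44, 13.2 RPKM. In sham both were higher in replicate 1 than in replicate 2. The part of macrophage RNA in the Cd44 changes was not tested.

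Hyal2, the hyaluronidase of the cell surface, stood at 7.69, 12.2 and 12.7 RPKM at day 14 after bleomycin, 2.13, 1.93 and 2.29 RPKM after pneumonectomy and 2.01 and 2.61 RPKM in sham. The 5 libraries of day 30 held 1.69, 1.46, 1.54, 1.53 and 1.84 RPKM. The day 14 bleomycin libraries lay above all others and the day 30 libraries below all others. Hyal2 rose by 1.92 ± 0.17 in log2 at day 14 after bleomycin against sham (adjusted p = 2.17e-06) and differed by 0.11 after pneumonectomy (95% interval -0.27 to 0.48). Its change at day 30 was -2.52 ± 0.14 against day 14 (adjusted p = 8.13e-08) and -0.60 ± 0.16 against sham (adjusted p = 0.0158). The day 30 call against sham was lost without sham replicate 2 (-0.42, adjusted p = 0.176), on the RPKM as deposited (-0.48, adjusted p = 0.0536) and with the replicate number as a block (-0.67, adjusted p = 0.124). Endothelial cells carry HYAL2, and at day 14 after bleomycin both Hyal2 and the endothelial markers were lower in replicate 1 (7.69 and 298 RPKM) than in replicates 2 (12.2 and 578 RPKM) and 3 (12.7 and 535 RPKM). After pneumonectomy the order of the libraries was the same for both. In sham, replicate 1 had the higher endothelial sum, 25.1 RPKM against 21.6, and the lower Hyal2. At day 30 replicate 1 had the highest endothelial sum, 16.7 RPKM, and replicate 5 the highest Hyal2. The part of endothelial RNA in the Hyal2 changes was not tested. The genes most like Hyal2 in profile were Caskin2 (0.21), Ly6e (0.22) and Lipe (0.23), where the median over all genes was 1.01.

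Hyal1, the lysosomal hyaluronidase, stood at 2.77, 4.70 and 3.94 RPKM at day 14 after bleomycin, 4.27, 4.30 and 4.90 after pneumonectomy and 4.65 and 3.47 in sham. Day 30 libraries held 3.43, 3.55, 2.77, 3.24 and 3.44 RPKM. It was not called against sham in any group, with 95% intervals of -0.74 to 0.04 at day 14 after bleomycin, -0.02 to 0.76 after pneumonectomy and -0.76 to -0.05 at day 30 (adjusted p = 0.0824). Its day 14 bleomycin change against sham was called without bleomycin replicate 2 (-0.50, adjusted p = 0.0210) and without sham replicate 2 (-0.56, adjusted p = 0.0417). Its change between day 14 after bleomycin and pneumonectomy was -0.72 ± 0.16 (adjusted p = 0.00156), a call lost on the RPKM as deposited (-0.26, adjusted p = 0.173). The gene most like it in profile was Nat6 (0.11), with which it shares exon bases. In RPKM Hyal2 stood at 2.59 to 3.22 times Hyal1 at day 14 after bleomycin, against 0.450 to 0.499 times after pneumonectomy and 0.431 and 0.751 times in sham.

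**Figure D4:**
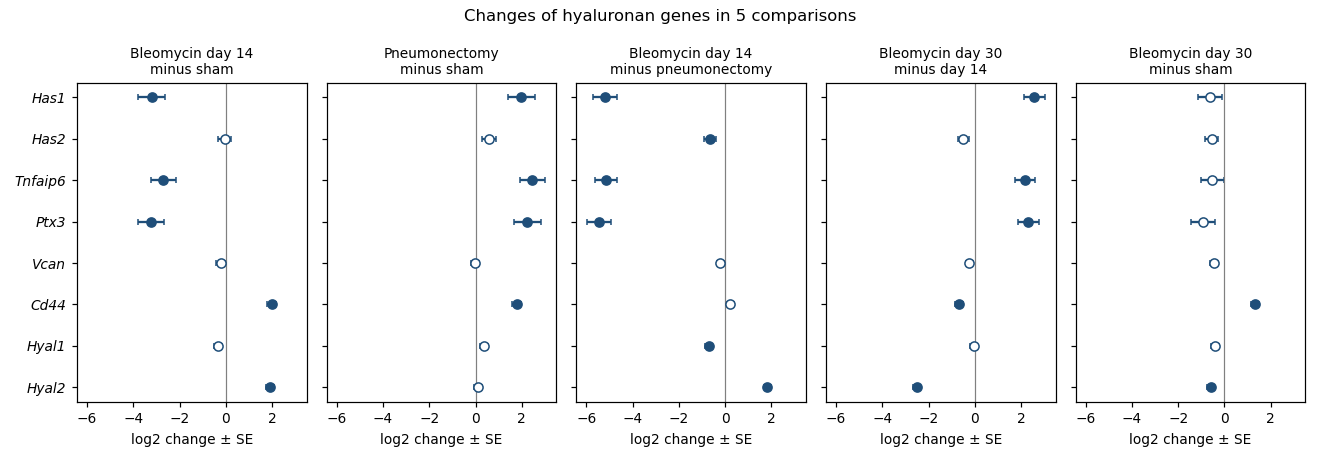
Log2 change with its standard error for the 8 tested members in 5 comparisons, 1 panel each, with filled points called at an adjusted p under 0.05 (limma) and open points not called. Has1, Tnfaip6 and Ptx3 lie left of 0 for bleomycin day 14 minus sham, right of 0 for pneumonectomy minus sham and near -5 for bleomycin day 14 minus pneumonectomy.

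Of the 9 members 8 were tested, and these 8 were above 1 RPKM in all 13 libraries. At day 14 after bleomycin against sham, 2 of the 8 (Hyal2 and Cd44) were higher, 3 (Has1, Tnfaip6 and Ptx3) lower and 3 not called, where 63.3% of all 12938 genes tested were called (33.4% higher and 29.9% lower), so the number of members called was close to the background. After pneumonectomy against sham 4 (Has1, Tnfaip6, Ptx3 and Cd44) were higher, 0 lower and 4 not called, where 42% of all genes were called (22.6% higher and 19.3% lower). Without sham replicate 2 only Cd44 of these 4 was called. Between day 14 after bleomycin and pneumonectomy 1 was higher, 5 lower and 2 not called, against 70.8% of all genes called (36.2% higher and 34.6% lower). Between day 30 and day 14 after bleomycin 3 (Has1, Tnfaip6 and Ptx3) were higher, 2 (Hyal2 and Cd44) lower and 3 not called, against 59.6% of all genes called (28.9% higher and 30.7% lower). At day 30 against sham Cd44 was higher, Hyal2 lower and 6 were not called, against 28.8% of all genes called (14.8% higher and 14.1% lower). The deposited RPKM of the compared groups did not overlap for 5, 4, 5, 6 and 4 of the 8 members in the 5 comparisons in this order, against 77.8%, 68.3%, 80.5%, 60.7% and 47.5% of all genes. The median log2 change of the 8 was -0.29, 1.19, -0.68, -0.14 and -0.54 in the 5 comparisons in this order, where that of all genes lay between -0.01 and 0.02.

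From day 14 to day 30 after bleomycin the 3 genes that had been low were higher. Has1 was higher at day 30 than at day 14 by 2.57 ± 0.46 in log2 (adjusted p = 5.19e-04), Tnfaip6 by 2.19 ± 0.43 (adjusted p = 0.00105) and Ptx3 by 2.31 ± 0.46 (adjusted p = 0.00107; n = 5 and 3). These calls remained when any of the 8 libraries was left out. Against sham the day 30 changes were -0.63 for Has1 (95% interval -1.78 to 0.53), -0.52 for Tnfaip6 (-1.61 to 0.56) and -0.92 for Ptx3 (-2.07 to 0.24). These intervals do not show that day 30 equalled sham, and the sham replicates themselves held 72.7 and 26.8 RPKM of Has1. Without sham replicate 1 the Has1 difference turned to 0.09.

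Genes that supply the nucleotide sugars for hyaluronan were read from a list of 8. The counts of this list and of those below stand beside the shares of all 12938 genes called. Against sham these were 33.4% higher and 29.9% lower at day 14 after bleomycin and 22.6% and 19.3% after pneumonectomy. At day 30 against sham they were 14.8% and 14.1%. Between day 14 after bleomycin and pneumonectomy they were 36.2% and 34.6%, and between day 30 and day 14 after bleomycin 28.9% and 30.7%. At day 14 after bleomycin 0 were higher, 7 lower and 1 not called against sham, with a median log2 change of -0.97. Gfpt2, which makes glucosamine 6-phosphate at the entry of the hexosamine pathway, fell by 3.69 ± 0.33, to 5.06 ± 0.512 RPKM at day 14 after bleomycin, against 56.3 ± 7.09 in sham (SD, n = 3 and 2). Uap1, which makes UDP-N-acetylglucosamine, and Ugp2, which makes UDP-glucose, fell by 2.23 ± 0.30 and 1.34 ± 0.14 (adjusted p = 5.73e-05 and 6.02e-06). Ugdh, which turns UDP-glucose into UDP-glucuronate, had 6.76 ± 0.773 RPKM at day 14 after bleomycin, against 26.3 ± 8.07 in sham. After pneumonectomy 0 of the 8 were higher and 3 lower, with Gfpt2 at 48.6 ± 13.1 RPKM (-0.02, adjusted p = 0.967). Between day 14 after bleomycin and pneumonectomy 2 were higher, 5 lower and 1 not called, Gfpt2 changing by -3.67 ± 0.29 and Uap1 by -2.81 ± 0.27. Between day 30 and day 14 after bleomycin 5 were higher, 0 lower and 3 not called, and at day 30 against sham 0 were higher, 3 lower and 5 not called.

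Other genes of hyaluronan cleavage, lysosomal breakdown and uptake gave 9 tested of 15 found in the deposited table. At day 14 after bleomycin 6 were higher, 2 lower and 1 not called against sham, with a median of 2.82. Of all genes 33.4% were called higher and 29.9% lower in this comparison. Lyve1, Stab1 and Hmmr had the smallest p and rose by 4.44 ± 0.25, 2.82 ± 0.22 and 3.37 ± 0.30. Lyve1 and Stab1 are receptors of lymphatic or sinusoidal endothelium and of macrophages, whose markers were high in the same libraries, and Hmmr is also a mitotic spindle gene. At day 30 macrophage markers summed to 198 to 745 RPKM and endothelial markers to 13.2 to 16.7. Most of the macrophage sum was Lyz2, at 149 to 593 RPKM. Csf1r stood at 2.48 to 4.04 RPKM at day 30, against 3.52 to 10.2 at day 14 after bleomycin. Each macrophage marker overlapped between these times. Lyve1 stood at 0.288 ± 0.0841 RPKM at day 30, against 13.6 ± 2.73 at day 14 after bleomycin. Stab1 stood at 0.752 ± 0.102 RPKM, against 4.30 ± 1.45 (SD, n = 5 and 3). The part of these cell types was not tested. After pneumonectomy 4 were higher, 1 lower and 4 not called. Lyve1 had the smallest p there and rose by 2.36 ± 0.25 against sham, to 2.31 ± 0.741 RPKM. Cemip, which is needed for hyaluronan depolymerisation in human skin fibroblasts, was at 1.29 ± 0.524 RPKM after pneumonectomy, against 0.0466 ± 0.0386 in sham (SD, n = 3 and 2), a rise of 3.44 ± 0.43 in log2 whose size depends on the 0.1 RPKM added. At day 14 after bleomycin Cemip was at 2.35 ± 0.703 RPKM and rose by 3.85 ± 0.43 against sham (adjusted p = 1.38e-05), with the same dependence. Between the day 14 groups its change was 0.41 and not called (adjusted p = 0.361). Tmem2, which encodes a membrane protein with hyaluronidase activity in mice, rose after pneumonectomy by 1.79 ± 0.35 (adjusted p = 0.00196). Its level at day 14 after bleomycin was 10.1 ± 1.89 RPKM, against 2.65 ± 0.538 after pneumonectomy and 0.866 ± 0.455 in sham. At day 30 against sham 4 were higher, 0 lower and 5 not called, Cemip by 3.38 ± 0.40 and Tmem2 by 1.54 ± 0.32. Between day 14 after bleomycin and pneumonectomy 5 were higher, 2 lower and 2 not called, and between day 30 and day 14 after bleomycin 2, 4 and 3.

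Of link proteins, other hyaluronan-binding proteins and heavy chains, 5 of 15 passed the filter. None of the 4 link protein genes and neither Acan, Ncan nor Bcan passed it. At day 14 after bleomycin 0 were higher, 3 lower and 2 not called against sham, where 29.9% of all genes were called lower. The heavy chain genes Itih5 and Itih2 changed by -3.28 ± 0.22 and -3.27 ± 0.28, Itih5 standing at 2.35 ± 0.658 RPKM at day 14 after bleomycin, against 19.7 ± 2.55 in sham. After pneumonectomy 3 were higher and 0 lower, Itih3 by 1.21 ± 0.18. All 5 were lower at day 14 after bleomycin than after pneumonectomy, where 34.6% of all genes were called lower. Between day 30 and day 14 after bleomycin 4 were higher and 0 lower, and at day 30 against sham 0 were higher and 1 lower, Itih5 (-0.61 ± 0.20).

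Proteases that cut versican were represented by 5 tested genes of 6. After pneumonectomy 4 were higher and 1 lower against sham, where 22.6% of all genes were called higher and 19.3% lower. Adamts4 was at 47.3 ± 16.1 RPKM, against 2.85 ± 1.32 in sham (4.24 ± 0.36), Adamts9 rose by 2.50 ± 0.24, and Adamts5 fell by 1.59 ± 0.16. At day 14 after bleomycin 2 were higher, 1 lower and 2 not called, Adamts5 changing by -2.79 ± 0.16 and Adamts4 by 1.63 ± 0.36. All 5 were lower at day 14 after bleomycin than after pneumonectomy, where 34.6% of all genes were called lower. Adamts1 changed by -1.75 ± 0.19 there. Between day 30 and day 14 after bleomycin 2 were higher and 3 lower, and at day 30 against sham 1 was higher and 2 lower.

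Genes of chondroitin sulphate assembly, the chains carried by versican, gave 19 tested of 20. They moved both ways, with 8 higher and 7 lower at day 14 after bleomycin, 8 higher and 5 lower after pneumonectomy and 5 higher and 3 lower at day 30, each against sham. Of all genes 63.3%, 42% and 28.8% were called in these comparisons. Between day 14 after bleomycin and pneumonectomy 8 were higher and 7 lower, and between day 30 and day 14 after bleomycin 6 were higher and 7 lower. Chsy3, a chain polymerase, rose by 2.26 ± 0.22 at day 14 after bleomycin, 2.00 ± 0.22 after pneumonectomy and 1.37 ± 0.20 at day 30. Its profile was the second nearest to that of Cd44, at 0.22, after Lclat1 at 0.19. Of CD44 linkers and sheddases 4 of 6 were higher and 0 lower at day 14 after bleomycin, 4 higher and 0 lower after pneumonectomy and 3 higher and 1 lower at day 30, each against sham. Among all genes 33.4% were called higher at day 14 after bleomycin, 22.6% after pneumonectomy and 14.8% at day 30. Msn (moesin), which ties CD44 to actin, rose by 1.06 ± 0.10 at day 14 after bleomycin, and Mmp14, a membrane protease that sheds CD44, by 1.28 ± 0.16, 0.92 ± 0.16 and 1.06 ± 0.14 in the 3 groups. Between day 14 after bleomycin and pneumonectomy 4 of the 6 were higher and 1 lower, and between day 30 and day 14 after bleomycin 1 was higher and 3 lower.

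**Figure D5:**
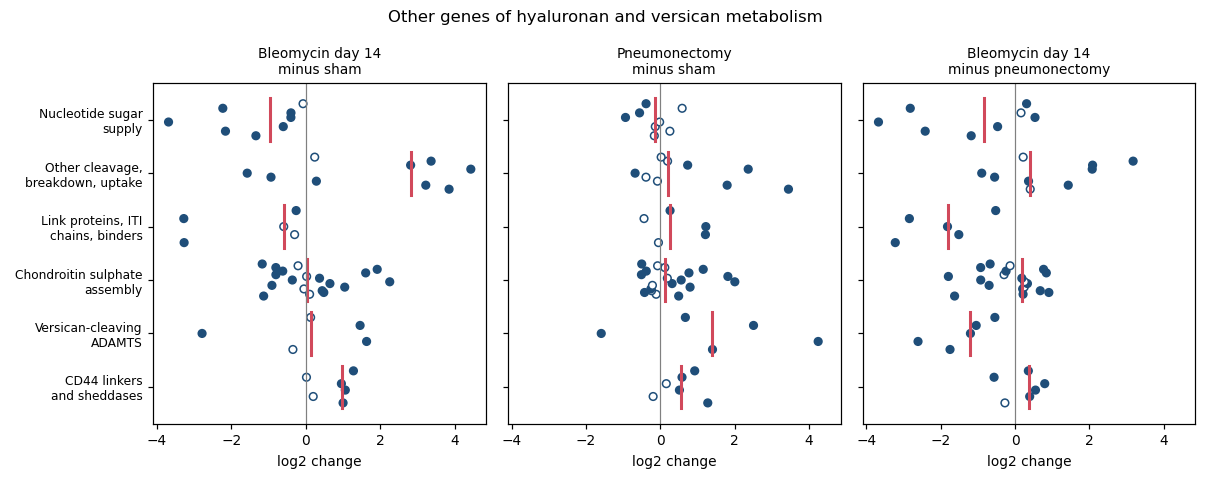
Log2 change of each tested gene of 6 lists (rows) in 3 comparisons (panels), filled where called at an adjusted p under 0.05 and open where not, with a red line at the median of the list. The nucleotide sugar genes lie mostly left of 0 for bleomycin day 14 minus sham (median -0.97). All 5 versican-cleaving genes lie left of 0 for bleomycin day 14 minus pneumonectomy. So do all 5 tested genes of the third list, Itih2, Itih3, Itih4, Itih5 and Habp4, among which no link protein gene is found.

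The remaining members had profiles of small amplitude. The genes most like Has2 were Gnl3 (0.23), Slc7a1 (0.25) and Ptger4 (0.27), where the median over all genes was 0.62. Those most like Vcan were Birc6 (0.14), Tnpo1 (0.15) and Utp20 (0.15), with a median of 0.40. Likeness was measured over 13 libraries that share groups, and it says nothing about shared control.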

How the data were processed

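RNA was sequenced from 13 libraries, prepared per the labels from 200 ng of total RNA with TruSeq v2 kits, where the sham and bleomycin protocol states poly(A) RNA, RNA quality numbers no lower than 6 and amplification over 12 cycles. The authors deposited RPKM for 43346 genes, per the file headers, on the mm10 assembly, per the submitters' processing notes; the aligner, the counter and the annotation are not given in the sources used here. Library names in the labels link the sham and bleomycin columns to samples, and the pneumonectomy columns, which carry no number, are called A, B and C. All 13 value columns were used.

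A gene was kept if 2 or more libraries reached 1 RPKM (12938 genes). RPKM were scaled between libraries by trimmed means of log ratios (trimmed fractions 0.3 for ratios, 0.05 for levels). Log2 was taken after adding 0.1 RPKM. A linear model with a mean per group was fitted to all 13 libraries (limma 3.58.1, R 4.3.3, empirical Bayes with trend, robust), was tested on simulated data, and was read for 5 contrasts. P-values are two-sided and Benjamini-Hochberg adjusted over all genes kept. They measure the spread between these libraries, which may be technical, and contrasts with the 2 sham libraries assume that sham varies like the other groups. Reads were estimated from values times exon length (GENCODE M21), and 83.3% to 85.3% of values under 10.5 reads came out whole within 0.05. Such depths cover counting error only.

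The members, the lists and the tests were chosen with earlier results of these data known. The text names all members and up to 3 genes most like a member. From each list it names called genes among the 3 with the smallest p in a comparison, not always all of them. Other list genes were chosen after their values were seen. Alternatives were other pseudocounts, filters, scalings and variance models, the compared groups only, the replicate number as a block, and each library left out.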

Additional observations from a re-analysis of the deposited data

Results flagged for a closer look

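In the day 30 bleomycin group Tnfaip6 in replicate 1 stood at 53.0 RPKM, apart from the 4 others at 12.0 to 21.9, a gap of 0.757 of the group's range, above the critical value of 0.710. For normally distributed values chance alone gives about 1 such flag in 20 groups, and 9 members were examined in this group of 5. The gap was taken on RPKM and was not examined on the log2 scale used for the changes.

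The changes against sham at the 2 times after bleomycin differed for 5 members, by the test of day 30 against day 14 (limma). The difference was 2.57 for Has1 (adjusted p = 5.19e-04), 2.19 for Tnfaip6 (adjusted p = 0.00105), 2.31 for Ptx3 (adjusted p = 0.00107), -2.52 for Hyal2 (adjusted p = 8.13e-08) and -0.68 for Cd44 (adjusted p = 0.00237). The day 30 libraries carried Xist and the day 14 libraries Ddx3y, so that sex and time cannot be told apart in these differences.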

How the results depend on the processing

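Of 592 alternative values for the members, 548 kept their direction and side of the threshold, 18 lost a call, 13 gained one and 13 changed sign, and of 74 alternative gene counts 69 stayed within 1.5 times. Log2 changes follow. For day 14 after bleomycin against pneumonectomy, Has2 lost its call in the compared groups only (-0.68), with the 0.1 RPKM filter (-0.64), with no filter (-0.57), with no trend (-0.65), as deposited (-0.19) and by upper quartile (-0.54), and as deposited Hyal1 lost its call (-0.26), Cd44 gained one (0.67) and Vcan changed sign (0.26). Against sham at day 14 after bleomycin, Has2 was 0.018 with no filter and, as deposited, 0.18, with Vcan 0.015. For day 30 against day 14, calls were gained by Has2 in the compared groups (-0.48) and as deposited (-0.62) and by Vcan as deposited (-0.36). For day 30 against sham, the compared groups gave calls for Has2 (-0.55) and Vcan (-0.45), and Hyal2 lost its call as deposited (-0.48). For pneumonectomy against sham, Hyal2 was -0.11 as deposited and -0.019 by upper quartile, Vcan 0.000363 with the 0.1 RPKM filter, and 3374 genes, against 5430, were called in the compared groups. The cause was not tested. Leaving out 1 library gave, for day 14 after bleomycin against pneumonectomy, -1.03 to -0.46 for Has2 and -0.40 to -0.041 for Vcan; against sham, -0.19 to 0.077 for Has2, -0.56 to -0.14 for Hyal1 and -0.42 to -0.063 for Vcan; for day 30 against day 14, -0.24 to 0.10 (Hyal1) and -0.39 to -0.038 (Vcan). For day 30 against sham it gave 1785 to 4085 genes, the fewest without sham replicate 2 and 2333 without sham replicate 1, -1.35 to 0.093 for Has1 and -0.78 to -0.42 for Hyal2. For pneumonectomy against sham it gave 3341 genes (without sham replicate 2) to 5079, 1.25 to 2.70 for Has1, 0.38 to 0.95 for Has2, -0.073 to 0.28 for Hyal2, 2.04 to 2.85 for Tnfaip6, -0.14 to 0.060 for Vcan and 1.86 to 2.70 for Ptx3. RPKM as deposited moved the median of all genes to 0.47 for day 14 after bleomycin against pneumonectomy (7918 higher and 2307 lower, against 4684 and 4474), and to 0.26, -0.21, -0.13 and 0.11 in the others. Deviations from the group means correlated at -0.13 to 0.14 between same-numbered libraries and at -0.22 to 0.20 between others. Deviations from means of as few as 2 libraries are bound to each other, so these values cannot decide whether the numbers pair libraries. With the replicate number as a block 6726 genes were called for day 14 after bleomycin against sham. For day 30, 6035 were called against day 14 and 369 against sham. In these fits Has2 was at -0.58 (called) for day 30 against day 14. Hyal2 was at -0.67 (not called) for day 30 against sham. No paired analysis was possible because the pneumonectomy columns carry no number, for the comparisons with that group. Only 2 sham libraries stand behind each comparison with sham.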
